A study of Rattus norvegicus with 13 samples.

Results

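The microglia genes examined here were 10 genes whose transcripts mark microglia in the brain: the colony stimulating factor receptor Csf1r, the fractalkine receptor Cx3cr1, the purinergic receptor P2ry12, the calcium binding protein Aif1 (also called Iba1), the complement chains C1qa, C1qb and C1qc, the lipid sensing receptor Trem2, its adaptor Tyrobp and the membrane protein Tmem119. They were taken by gene name from the deposited expression table, which listed 13129 distinct gene names in 14716 rows, and 10 of 10 names were found, each in 1 row. The samples were 13 male Long Evans rat pups, 1 per litter, taken on postnatal day 2 (PN2). Dams of the 6 PTU exposed pups drank water with 3 ppm propylthiouracil (PTU), a drug that blocks thyroid hormone (TH) synthesis, from gestational day 6, and dams of the 7 control pups drank water without it (0 ppm). RNA came from the ventricular zone (VZ) of the posterior telencephalon, cut out by laser capture microdissection from brains perfused with sucrose, so each library mixed the progenitor cells lining the ventricle with whatever vessels, microglia or neighbouring tissue lay under the laser. The comparison asked which transcripts of this epithelium differ when the pup is hypothyroid.

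Microglia are the resident macrophages of the brain parenchyma. They enter the brain early in development, depend on signals through CSF1R, and in the newborn telencephalon they gather near the ventricle and in white matter, where they clear dying cells and surplus progenitors. CX3CR1 binds fractalkine from neurons, P2RY12 senses nucleotides released by nearby cells, C1q starts the classical complement cascade and tags material for removal, and TREM2 signals through TYROBP to drive phagocytosis. Aif1, Csf1r, Cx3cr1 and the C1q chains are also made by the macrophages of the meninges and choroid plexus, whereas P2ry12 and Tmem119 are the more particular to microglia.

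Promoter windows from RefSeq (build GRCr8, 250 bases before to 50 after the start of the gene) were at hand for 5 of the 10 genes, namely Csf1r, Cx3cr1, C1qa, C1qb and Trem2. The C1q chains lie next to each other on chromosome 5 in the order C1qb, C1qc, C1qa. The windows of C1qa and C1qb are shown because these neighbours have the lowest estimate and a positive estimate of the PTU difference below. C1qa was read from chr5:154419884-154420183 and C1qb from chr5:154407778-154408077, both on the minus strand and printed 5′ to 3′. Capitals mark each GAGGAA on either strand (TTCCTC on the reverse), 1 sequence bound by the myeloid factor PU.1. Shorter or other forms of its site were not marked or counted.
C1qa: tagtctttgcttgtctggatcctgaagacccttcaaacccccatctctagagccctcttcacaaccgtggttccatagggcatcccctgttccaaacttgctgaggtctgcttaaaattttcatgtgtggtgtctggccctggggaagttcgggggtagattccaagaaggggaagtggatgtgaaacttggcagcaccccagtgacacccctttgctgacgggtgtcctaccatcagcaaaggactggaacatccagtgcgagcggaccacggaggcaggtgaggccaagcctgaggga
C1qb: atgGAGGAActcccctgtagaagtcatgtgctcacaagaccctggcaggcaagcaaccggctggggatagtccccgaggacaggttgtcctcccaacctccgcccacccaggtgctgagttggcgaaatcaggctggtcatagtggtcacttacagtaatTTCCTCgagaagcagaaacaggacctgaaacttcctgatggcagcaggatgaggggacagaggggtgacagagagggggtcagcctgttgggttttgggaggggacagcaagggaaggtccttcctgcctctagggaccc
The letters occurred 2 times in the window of C1qb and 2 times in that of Csf1r, 1 time in that of Trem2, and not in those of C1qa and Cx3cr1. Of 33469 rat windows of 300 bases, 9239 (27.6%) held them at least 1 time. The match is a description of the letters only. Expression itself was measured on another build (mRatBN7.2).

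The values are normalized counts, that is estimated read counts divided by a size factor per library. The reads behind them were estimated from the step between low values at 22297523 to 43510943 in the control libraries and 28411970 to 44386500 in the PTU libraries. In every library the 3 rows with the highest values took a large share, 32.4% to 60.1% of the reads in controls and 23.9% to 57.0% after PTU exposure. All 9 radial glia genes examined, the markers of the VZ itself, had a row. All 10 choroid plexus genes had one too, although that tissue lies beside the VZ and not in it, and their summed normalized count ran from 50931 to 143788 in control and from 23741 to 102370 after PTU exposure. None of the 10 blood leukocyte and 6 erythrocyte genes examined had a row with its name. Of 14606 rows tested with limma, 0 (0%) had an adjusted p of at most 0.05, and 2383 (16.3%) had an unadjusted p under 0.05, of which 1185 were higher and 1198 lower after PTU exposure (1584 and 81 with the same total for every pup). The same count of adjusted calls was 0 with limma-voom on estimated reads. It was 179 without PTU pup 2, 40 with pups weighted by quality and 18 with a replicate block, and none of these calls was a microglia gene.

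None of the 10 microglia genes passed the test between PTU exposed and control pups (adjusted p of at most 0.05, limma), and the groups overlapped for all 10, against 0.596% of all rows in which they did not overlap. The estimate was higher after PTU exposure for 6 genes and lower for 4, with a median log2 fold change of 0.04 beside a median of 0.00 over all tested rows. Without PTU pup 2 the median of the 10 genes was -0.023. When every pup was instead scaled to the same total, the median of all rows moved to 0.20 and that of the 10 genes to 0.24, and Csf1r, C1qc and Tyrobp turned from below to above 0. Every value given below with the same total for every pup stands beside that median of 0.20. C1qa alone had an unadjusted p under 0.05, which is 1 of 10 genes (10%) beside 16.3% of all rows. The summed normalized count of the 10 genes was 1958 ± 255 (SD, n = 7) in control and 1990 ± 273 (SD, n = 6) after PTU exposure, with ranges of 1661 to 2422 and 1683 to 2442. In a bulk sample a smaller number of microglia and less RNA per microglial cell cannot be told apart, and neither can a larger number and more RNA per cell.

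**Figure D1:**
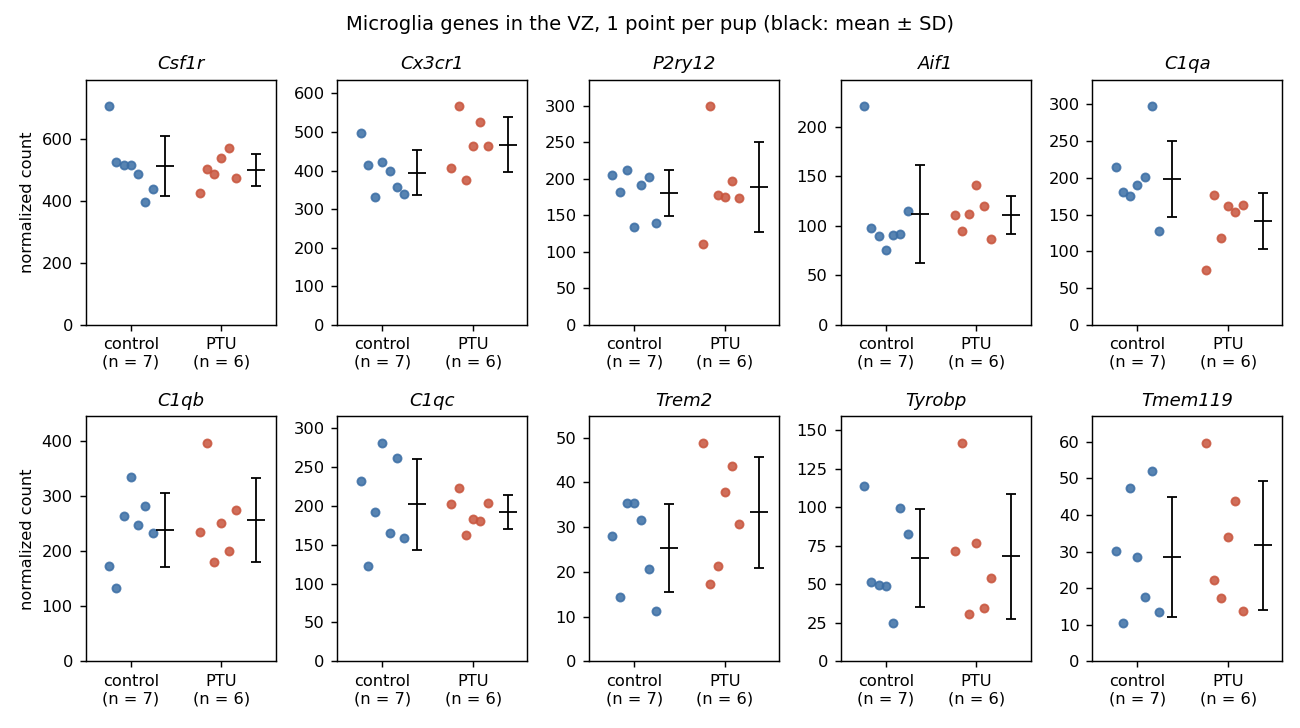
Normalized count (vertical axes, starting at 0) of each of the 10 microglia genes in the 7 control (blue) and 6 PTU exposed (red) pups, with the mean ± SD in black. The points of the groups overlap for every gene, C1qa has all 6 PTU points below the control mean, and 1 control pup stands high for Csf1r (706) and Aif1 (221).

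**Figure D2:**
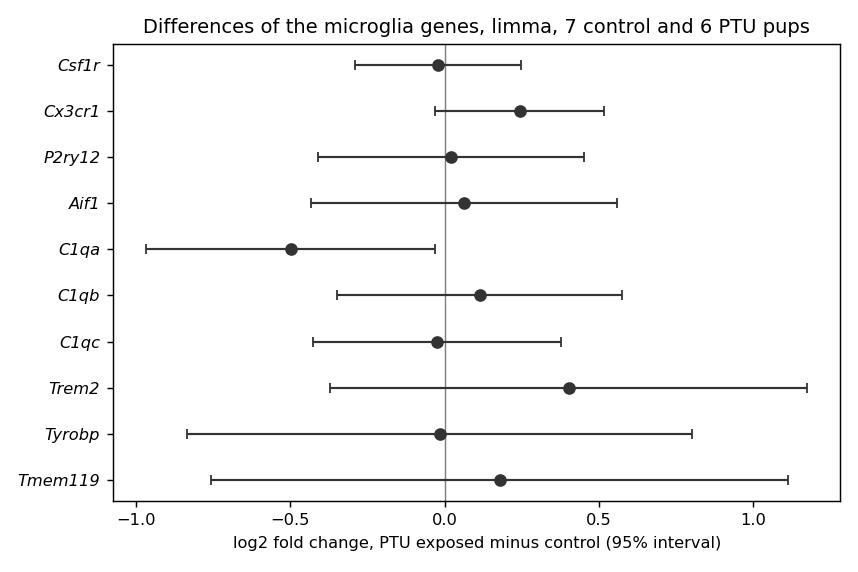
Log2 fold change of PTU exposed minus control pups from limma (points) with the 95% interval (bars) for the 10 genes. The interval of C1qa (-0.97 to -0.03) lies below 0, the other 9 intervals include 0, and those of Trem2, Tyrobp and Tmem119 are the widest of the 10.

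Among the receptors, Csf1r (ENSRNOT00000117928), which carries the survival signal of microglia, ran from 397 to 706 with a median of 514 normalized counts in control pups and from 425 to 572 with a median of 495 after PTU exposure. All PTU values lay inside the control range. The log2 fold change was -0.02 (SE 0.13, adjusted p = 0.947, limma), and its 95% interval, in folds of PTU over control, was 0.818 to 1.19. The ligands of this receptor are Csf1 and Il34, made by glia and neurons. Csf1 had a log2 fold change of -0.08 (SE 0.15) and Il34 of -0.36 (SE 0.44), and neither passed the test (adjusted p = 0.835 and 0.706).

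Cx3cr1 (ENSRNOT00000093935), the receptor for fractalkine, ran from 330 to 498 with a median of 399 normalized counts in control pups and from 376 to 567 with a median of 463 after PTU exposure. In 5 of 6 PTU exposed pups it lay above the control mean, and 2 lay above the highest control pup. The difference of 0.24 on the log2 scale (SE 0.13, interval -0.03 to 0.52) did not pass the test, with an unadjusted p of 0.0796 and an adjusted p of 0.361 (limma). The unadjusted p was under 0.05 in 2 of 23 other settings, without control pup 1 and without PTU pup 3. Its ligand Cx3cl1, a membrane-bound chemokine of neurons, had a log2 fold change of -0.05 (SE 0.19, adjusted p = 0.920).

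P2ry12 (ENSRNOT00000018600), a sensor of extracellular ADP that guides microglial processes, ran from 134 to 212 with a median of 192 in control pups and from 110 to 300 with a median of 177 normalized counts after PTU exposure. The PTU pups held both the lowest and the highest value of all 13. The log2 fold change was 0.02 (SE 0.20, interval -0.41 to 0.45, adjusted p = 0.969, limma).

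Of the other signals that reach microglia from neighbouring cells, Cd200, a neuronal surface protein that restrains microglia through a receptor on them, had the smallest unadjusted p, with a log2 fold change of 0.95 (SE 0.30, adjusted p = 0.164, limma). The neuron genes examined had estimates higher after PTU exposure for 8 of 9, 4 with an unadjusted p under 0.05 (8.11% of all rows), with a median of 0.33 (0.18 and 2 without PTU pup 1), and their part in the value of Cd200 was not tested. Pros1 and Gas6, the ligands that bridge dying cells to phagocyte receptors, had log2 fold changes of -0.35 (SE 0.14, adjusted p = 0.254) and -0.37 (SE 0.19, adjusted p = 0.355). Cd47, the "do not eat me" signal, stood at 0.12 and its receptor Sirpa at -0.11 on the same scale. Tgfb1 and Tgfb2, cytokines that keep microglia in their resting identity, stood at 0.16 (SE 0.17) and -0.19 (SE 0.20), and the chemokine Cxcl12 at 0.28 (SE 0.31). Leaving out 1 pup gave -0.31 to -0.063 for Tgfb2 and 0.042 to 0.48 for Cxcl12. Over these 11 genes, 0 passed the test, 1 was higher and 1 lower at an unadjusted p under 0.05 (8.11% and 8.2% of all rows), and the median was -0.08 (0.13 with the same total for every pup).

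Of the C1q chains, C1qa had the lowest estimate of the 10 genes, and the difference between chains was not tested. C1qa (ENSRNOT00000109333) ran from 128 to 298 with a median of 190 normalized counts in control pups and from 75.1 to 177 with a median of 158 after PTU exposure. All 6 PTU exposed pups lay below the control mean and 2 lay below the lowest control pup. The means were 198 ± 51.8 (SD, n = 7) and 141 ± 37.9 (SD, n = 6), and the fold of PTU over control was 0.708, or -0.50 on the log2 scale (SE 0.22, interval -0.97 to -0.03). The unadjusted p was 0.0384 and the adjusted p 0.284 (limma), so the difference did not pass the test over all rows. Across 23 other settings and subsets of pups the unadjusted p of C1qa ran from 0.0152 to 0.244 and was under 0.05 in 14 of them. The highest p came with the same total for every pup, where the log2 fold change was -0.30 while the median of all rows was 0.20.

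C1qb (ENSRNOT00000017060) ran from 133 to 334 with a median of 248 in control pups and from 180 to 397 with a median of 243 normalized counts after PTU exposure, a log2 fold change of 0.11 (SE 0.22, interval -0.35 to 0.58, adjusted p = 0.831, limma). C1qc (ENSRNOT00000108361) ran from 122 to 281 with a median of 192 in control pups and from 162 to 223 with a median of 192 after PTU exposure, a log2 fold change of -0.02 (SE 0.19, interval -0.43 to 0.38, adjusted p = 0.961). The PTU values of C1qc all lay inside the control range, and those of C1qb did so but for 1 pup above it.

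Since the chains assemble into 1 protein, their ratios within a pup were taken as well, after the values of C1qa had been seen and therefore without a test. The ratio of C1qa to C1qb had a median of 0.813 in control pups (0.546 to 1.36) and 0.620 after PTU exposure (0.319 to 0.763), a log2 difference of -0.62, and 2 PTU exposed pups lay below the control range. The ratio of C1qa to C1qc had a median of 0.931 (0.676 to 1.47) and 0.795 (0.372 to 0.888), a log2 difference of -0.48. The ratio of C1qb to C1qc had a median of 1.19 (0.749 to 1.50) and 1.26 (1.11 to 1.78), a log2 difference of 0.14. A scaling factor of the library cancels in these ratios.

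Beyond C1q, 12 of 18 complement components and regulators examined had a row. None passed the test, 4 had an unadjusted p under 0.05 and were lower (8.2% of all rows), and none was higher at that level. The median log2 fold change was -0.17. With the same total for every pup, 1 was at that level and the median was 0.04, beside a median of 0.20 over all rows. C1r, the protease that C1q activates first, ran from 1160 to 2064 in control and from 546 to 1287 normalized counts after PTU exposure, and all 6 PTU exposed pups lay below the control mean. Its log2 fold change was -0.79 (SE 0.18, adjusted p = 0.122, limma). It passed the threshold without PTU pup 2 (-0.87, adjusted p = 0.0388), with pups weighted by quality (-0.83, adjusted p = 0.0413) and with a replicate block (-0.81, adjusted p = 0.0414). Clu, a secreted inhibitor of the terminal complement complex, had a log2 fold change of -0.63 (SE 0.21, adjusted p = 0.174), and Sez6, a neuronal membrane protein that limits complement, of 0.09 (SE 0.12, adjusted p = 0.751). The others of the 4, named after their values were seen, were C1s, the partner protease of C1r, at -0.50 (SE 0.17, adjusted p = 0.174), and Csmd1, a membrane regulator of complement made by neural cells, at -0.31 (SE 0.10, adjusted p = 0.171).

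Beside these values, all 10 choroid plexus genes had estimates lower after PTU exposure, 7 of them with an unadjusted p under 0.05 (8.2% of all rows were lower at that level), and none passed the test (lowest adjusted p = 0.156). With the same total for every pup, where the median of all rows was 0.20, 3 of the 10 had an unadjusted p under 0.05. At that level and scaling, 0.555% of all rows were lower. The estimates of the radial glia genes were also below 0 for 9 of 9, with a median log2 fold change of -0.29 and 5 with an unadjusted p under 0.05 (-0.088 and 0 with the same total for every pup). Those of the ependymal genes were below 0 for 3 of 3, with a median of -0.46 and 2 at that level (-0.26 and 0 with the same total). None of these genes passed the test with all pups, and without PTU pup 2 Hes1, a Notch target of radial glia (adjusted p = 0.0499), and Dnah11, a dynein of motile cilia (adjusted p = 0.0324), did. With group means removed, over 13 pups, Pearson r with the choroid plexus genes was 0.963 for Clu (Spearman rho 0.863), 0.805 for C1r (0.637) and 0.600 for C1s (0.418), and leaving out the 2 pups farthest from the median gave 0.909, 0.338 and -0.03. For C1qa it was -0.467 (rho -0.522, and -0.13 without those 2 pups). The part of choroid plexus, radial glia and ependymal cells in the complement values was not tested.

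Trem2 (ENSRNOT00000093814), the receptor for lipids and apolipoproteins, ran from 11.3 to 35.3 with a median of 28.0 in control pups and from 17.4 to 48.9 with a median of 34.2 normalized counts after PTU exposure. Of the PTU exposed pups, 3 of 6 lay above the highest control pup. The log2 fold change of 0.40 had an SE of 0.37 and an interval of -0.37 to 1.18 (adjusted p = 0.606, limma), and leaving out 1 pup gave 0.24 to 0.57. Tyrobp (ENSRNOT00000028284), the adaptor that carries its signal, ran from 25.1 to 114 with a median of 51.3 in control pups and from 30.9 to 142 with a median of 62.7 after PTU exposure. Its log2 fold change was -0.02 (SE 0.39, interval -0.83 to 0.80, adjusted p = 0.989).

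Downstream of Trem2, Tyrobp and Csf1r, 10 of 13 signalling genes examined had a row and 0 passed the test. The estimates were higher for 5 and lower for 5, with a median of -0.02 (0.18 with the same total for every pup, -0.05 to 0.08 on leaving out 1 pup). Pik3cd, the leukocyte catalytic subunit of PI3 kinase, was the only 1 of the 10 with an unadjusted p under 0.05 (8.11% of all rows were higher at that level), and its log2 fold change was 0.41 (SE 0.17, adjusted p = 0.256). The adaptor Grb2 stood at 0.15 (SE 0.08) and the kinase Lyn at 0.07 (SE 0.10).

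Aif1 (ENSRNOT00000097547), the actin binding protein stained as Iba1, ran from 76.0 to 221 with a median of 91.4 in control pups and from 87.0 to 142 with a median of 112 normalized counts after PTU exposure. The log2 fold change was 0.06 (SE 0.23, interval -0.43 to 0.56, adjusted p = 0.921, limma), and without control pup 1, which held the value of 221, it was 0.24. Tmem119 (ENSRNOT00000000889), a membrane protein of unsettled function in microglia, ran from 10.5 to 52.1 with a median of 28.5 in control pups and from 13.7 to 59.7 with a median of 28.1 after PTU exposure. Its log2 fold change was 0.18 (SE 0.44, interval -0.76 to 1.11, adjusted p = 0.874).

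Among 29 other microglia and myeloid genes, 26 had a row, 0 passed the test, and the estimates were higher for 10 and lower for 16, with a median log2 fold change of -0.07 (0.13 with the same total for every pup, 0.034 without PTU pup 3). At an unadjusted p under 0.05, 2 were higher and 3 lower, which is 5 of 26 beside 16.3% of all rows. Leaving out 1 pup gave 3 (without PTU pup 5) to 7 (without control pup 3) at that level. Laptm5, a lysosomal protein of blood-derived cells and microglia, ran from 186 to 354 in control and from 105 to 205 normalized counts after PTU exposure, and all 6 PTU exposed pups lay below the control mean (log2 fold change -0.59, SE 0.19, adjusted p = 0.171, limma). The others at that level were named after their values were seen. Itgam, the complement receptor subunit CD11b, had a log2 fold change of -0.99 (SE 0.37, adjusted p = 0.213), and Cd48, a leukocyte adhesion protein, of -0.44 (SE 0.17, adjusted p = 0.213). Ctss, the lysosomal protease cathepsin S, stood at 0.40 (SE 0.18, adjusted p = 0.280) and Coro1a, an actin regulator, at 0.50 (SE 0.22, adjusted p = 0.272). The highest value of Coro1a, 772, was in PTU pup 1, which also had the highest value of Cd200 (2517). The part of neurons in the value of Coro1a was not tested. Of the genes with the highest values in the list, Sall1, a transcription factor of microglia that neural progenitors also express, stood at -0.10 (SE 0.10), and Lgmn, a lysosomal protease, at -0.03 (SE 0.10).

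Transcription factors that set myeloid identity were measured for 8 of 10 names. Spi1, which encodes PU.1, had a log2 fold change of -0.26 (SE 0.32, adjusted p = 0.719, limma) and Irf8, its partner in microglia, of -0.36 (SE 0.27, adjusted p = 0.513). Ikzf1 stood at 0.51 (SE 0.30), Irf5 at 0.24 (SE 0.47) and Cebpb at -0.45 (SE 0.29). Bcl11a was the only 1 of the 8 with an unadjusted p under 0.05 (0.39, SE 0.15, adjusted p = 0.233; 8.11% of all rows were higher at that level), and like Mef2c (0.51, SE 0.44) it is also expressed by neurons. The part of neurons, whose genes are given above beside Cd200, in the values of Bcl11a and Mef2c was not tested.

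Of 19 genes of phagocytic and activated microglia, 15 had a row and 0 passed the test. At an unadjusted p under 0.05, 4 were lower and 0 higher (8.2% and 8.11% of all rows), with a median log2 fold change of -0.19. Leaving out 1 pup gave 2 (without PTU pup 6) to 5 (without control pup 4) at that level. With the same total for every pup, 0 were at that level and the median was 0.01. Under that scaling the median of all rows was 0.20, and 10.8% of all rows were higher and 0.555% lower at that level. Spp1, which encodes osteopontin, ran from 45.2 to 86.8 in control and from 26.6 to 75.1 normalized counts after PTU exposure (log2 fold change -0.83, SE 0.28, adjusted p = 0.175, limma). Named after their values were seen, Lgals3, the lectin galectin 3, stood at -0.84 (SE 0.34, adjusted p = 0.242), Axl, a receptor for Gas6, at -0.37 (SE 0.13, adjusted p = 0.190), and Ctsd, the lysosomal protease cathepsin D, at -0.36 (SE 0.14, adjusted p = 0.221). With group means removed, over 13 pups, r with the choroid plexus genes was 0.871 for Ctsd, 0.434 for Spp1, 0.335 for Lgals3 and 0.10 for Axl. Leaving out the 2 pups farthest from the median gave 0.688, -0.27, 0.325 and 0.08 in the same order. The part of choroid plexus, radial glia and ependymal cells, whose genes are given above, in the values of this list was not tested.

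Inflammatory mediators had a row for 6 of 16 names, and 0 of the 6 had an unadjusted p under 0.05, beside 16.3% of all rows. Their median log2 fold change was -0.19, with 1 higher and 5 lower, and it was -0.00036 with the same total for every pup and -0.33 to -0.09 on leaving out 1 pup. Myd88, the adaptor of Toll-like receptors, had the lowest p of the 6 (-0.38, SE 0.18, adjusted p = 0.307, limma). Border associated macrophages, which sit in meninges, perivascular spaces and choroid plexus and share most of the 10 genes, had a row for 5 of 10 names with a median of -0.08 (0.12 with the same total for every pup, -0.30 without PTU pup 1) and 0 with an unadjusted p under 0.05. Their mannose receptor gene Mrc1 stood at -0.73 (SE 0.39, adjusted p = 0.357). The summed normalized count of these 5 genes was 289 to 523 in control and 235 to 623 after PTU exposure, and their part in the values of the microglia genes was not tested.

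**Figure D3:**
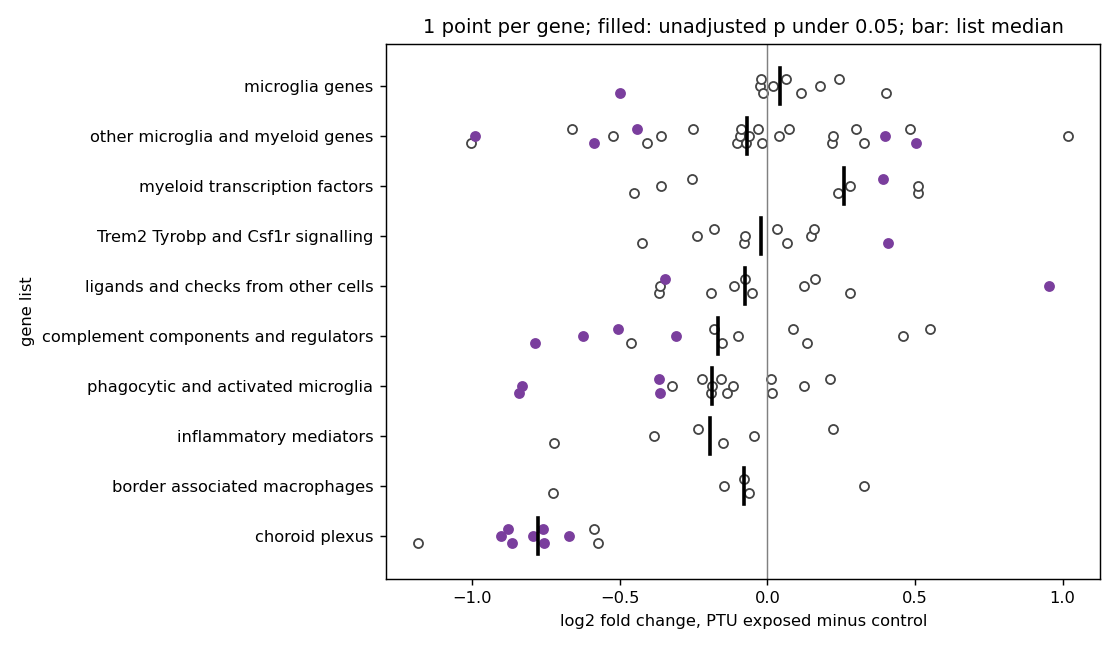
Log2 fold change of PTU exposed minus control pups (horizontal axis), 1 point per gene with a row, for the microglia genes and the related gene lists, filled where the unadjusted p was under 0.05, with a bar at each list's median. The microglia genes lie around 0 (median 0.04), the choroid plexus genes all lie below 0, and no gene shown had an adjusted p of at most 0.05.

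How small a difference could be seen depended on the spread between pups. The SD between pups within groups was 0.215 on the log2 scale for Csf1r and Cx3cr1, 0.335 to 0.426 for P2ry12, Aif1 and the C1q chains, 0.599 for Trem2, 0.767 for Tyrobp and 0.819 for Tmem119. The median over the 10 genes was 0.409, beside 0.279 over all tested rows. The reads behind a value fell to 8 for Tmem119 and 11 for Trem2 in the lowest pup and reached 706 for Csf1r in the highest, and the spread that counting alone would give was 0.290 for Tmem119, 0.281 for Trem2 and 0.064 for Csf1r. The observed SD was 2.13 (Trem2) to 4.46 (C1qb) times the counting SD, above 1 for all 10 genes. These counting values cover counting error only, since amplified reads are not independent molecules.

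**Figure D4:**
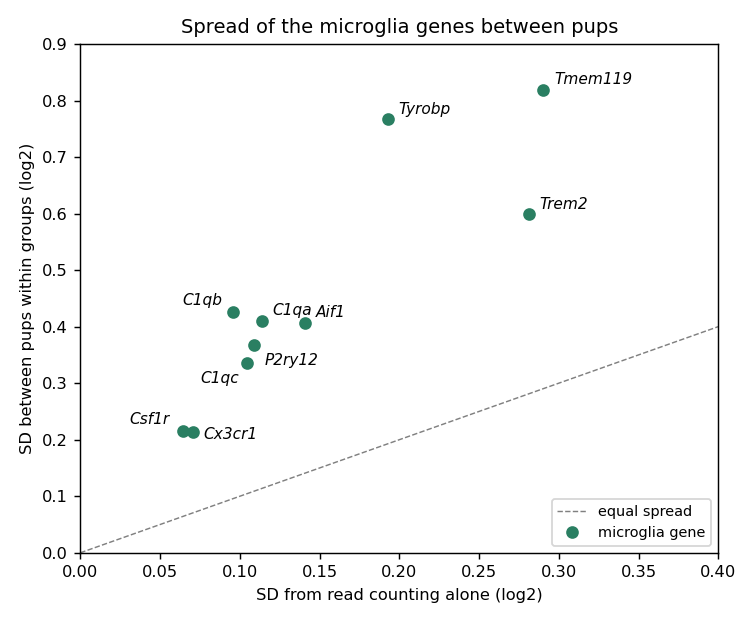
SD between pups within groups (vertical axis, log2) against the SD that read counting alone would give (horizontal axis, log2) for the 10 microglia genes, with a dashed line where they are equal. All 10 points lie above the line, from 0.215 for Csf1r and Cx3cr1 to 0.819 for Tmem119.

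The high and low pups were not the same from gene to gene. Control pup 1 was the highest of its group for 4 genes (Csf1r, Cx3cr1, Aif1 and Tyrobp), PTU pup 2 was the highest of its group for 6, and PTU pup 3 was the lowest of its group for 4. With group means removed, the 45 pairs of genes had a median Pearson r of 0.198 (Spearman rho 0.165) over 13 pups, and 34 pairs were positive. The pups share library preparation and scaling, so these correlations are a description.

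The highest r was between P2ry12 and C1qa, at 0.723 (rho 0.484). It was 0.690 (rho 0.626) for C1qb and C1qc, 0.684 (rho 0.577) for Csf1r and Cx3cr1, and 0.664 (rho 0.654) for Trem2 and Tmem119. C1qa stood less close to its neighbours on the chromosome, with r of 0.380 to C1qc and 0.283 to C1qb. Trem2 and Tyrobp, receptor and adaptor, had an r of -0.33, and the lowest value was that of Aif1 and C1qb, at -0.50 (rho -0.69). Against the mean of the other 9 genes, C1qc had the highest r (0.711) and Aif1 the lowest (0.158).

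**Figure D5:**
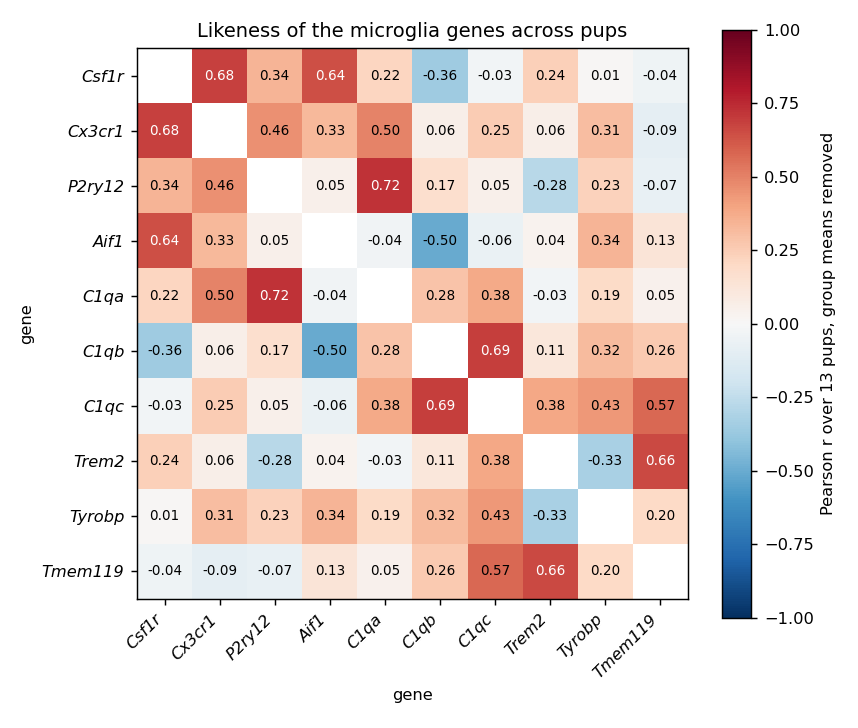
Pearson r of each pair of microglia genes over 13 pups, from log2 values with group means removed (colour and printed value). Most of the 45 pairs are weakly positive (median 0.198), with the highest values for P2ry12 and C1qa, C1qb and C1qc, Csf1r and Cx3cr1, and Trem2 and Tmem119.

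The mean of the 10 genes per pup, centred within groups, had an r of 0.518 (rho 0.374) with the mean of the other microglia and myeloid genes, which was 0.225 without the 2 pups farthest from the median. Its r was -0.24 with the choroid plexus genes and 0.324 with the share of reads in the 3 rows with the highest values. Without the 2 farthest pups these were -0.30 and 0.161. Of the 26 other microglia and myeloid genes, Itgb2, a leukocyte integrin subunit, had the highest r (0.765) and 18 were positive. Positive values were also found for 6536 of 13161 other named rows, 7 of 9 radial glia genes and 0 of 10 choroid plexus genes. Over 13161 other named rows, the 10 most alike were Tmem14c (r 0.830), Cmtr2 (0.818), Fbxw4 (0.816), Snx15 (0.811), Nfatc4 (0.803), Igf2bp3 (0.800), Atp11b (0.795), Lrsam1 (0.792), Yars1 (0.787) and Atf4 (0.786). None of these 10 belongs to a list of microglia or myeloid genes used here.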

How the data were processed

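Laser captured VZ from 13 male PN2 rat pups (7 control, 6 PTU, from separate litters) was sequenced from total RNA with ribosomal depletion. Per the methods and the submitters' processing notes, the authors trimmed reads with Trimmomatic, aligned them with STAR 2.7.8a to mRatBN7.2 (rn7), estimated counts per row in Partek and compared groups with DESeq2. The deposited signal values are normalized counts, that is estimated counts divided by a median ratio size factor. The table also holds the authors' comparison (p-values, FDR, ratios, fold changes and group means), which was not used. Rows carry Ensembl transcript identifiers although the methods name a RefSeq annotation; 1488 rows have no gene name.

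Here, log2(normalized count + 1) was fitted with limma 3.58.1 (R 4.3.3; empirical Bayes with a variance trend, two-sided, no covariate) over 14606 rows (those whose mean reached 10 or more), with Benjamini-Hochberg adjustment over all rows and a threshold of 0.05. Fold changes are on that log2 scale and understate changes of low genes. Values were whole multiples of a step for only 88.4% to 90.1% of low values (tolerance 0.03 reads), so no count model was the test. The 10 genes and the 18 other lists were chosen with earlier results of these data known, and counts and medians over lists carry no test. Named genes were all 10 members, all ligands and myeloid transcription factors, and from each other list the 2 with the highest mean and the 1 with the smallest p. A result of 1 gene that this rule names is not reported here. The code of the fit was run on simulated counts with known changes, which checks the code and not these data. Alternatives were other pseudocounts, filters and scalings, pup weights, limma-voom, a replicate block and leaving out each pup. No lengths were given, so levels are not compared between genes.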

Additional observations from a re-analysis of the deposited data

Results flagged for a closer look

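Csf1r in control pup 1 stood apart from the other 6 control pups at 706 normalized counts, with the nearest at 526, a gap of 0.581 of the range of the group. Aif1 in the same pup stood at 221 with the nearest at 115, a gap of 0.729 of the range. Each gap was above Dixon's critical value for 7 samples. Of 20 sets of values examined (10 genes in 2 groups) these 2 stood out, where chance gives about 1 in 20. Without this pup the log2 fold change of Csf1r was 0.06 and that of Aif1 0.24, and neither gene passed the test (limma).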

How the results depend on the processing

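Across 23 alternatives no microglia gene reached an adjusted p of 0.05 (limma), and the lowest was 0.152, for C1qa with a replicate block. Over these alternatives, 196 values of the 10 genes kept their direction and 31 turned, 22 of them on leaving out 1 pup. Where the direction turned, the cause was not tested. The number of rows with an adjusted p of at most 0.05 was 0 to 179 on leaving out 1 pup (179 without PTU pup 2, 7 without control pup 6), 40 with pups weighted by quality and 18 with a replicate block. The number shared by both groups names pups of separate litters. Deviations of same-numbered pups had correlations of -0.07 to 0.198, over 0.1 in 4 of 6 pairs, and 1 of 6 PTU pups was closest to its own number, so the pups were not treated as pairs. With the replicate block, control pup 7 has no partner and adds nothing to the difference.

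Turned values of the log2 fold change were, with pups weighted by quality, 0.00081 for Csf1r, -0.060 for C1qb and -0.028 for Tmem119, with a replicate block -0.038 for P2ry12, 0.058 for Tyrobp and 0.13 for Col3a1, and with voom -0.0074 for P2ry12. With the same total for every pup, where the median of all rows was 0.20, they were 0.18 for Csf1r, C1qc, Tyrobp and Col3a1, 0.10 for Sall1, 0.17 for Lgmn and Ccdc153, 0.13 for Csf1, 0.15 for Cx3cl1 and Kdr, 0.088 for Sirpa, 0.011 for Tgfb2, 0.014 for Ctsb, 0.050 for Nfkbia and 0.051 for Stab1. Under that scaling the medians were 0.13 for the ligands, 0.18 for the signalling genes, 0.035 for complement, 0.014 for phagocytic genes, 0.12 for pericytes and -0.088 for radial glia, beside -0.08 and -0.29 with the deposited scaling for the last pair.

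Leaving out 1 pup gave a median of the 10 genes of -0.023 to 0.11, and -0.080 to 0.059 for Csf1r, -0.12 to 0.16 for P2ry12, -0.014 to 0.24 for Aif1, -0.021 to 0.21 for C1qb, -0.13 to 0.065 for C1qc, -0.26 to 0.17 for Tyrobp, -0.035 to 0.375 for Tmem119, -0.095 to 0.022 for Lgmn, -0.21 to 0.38 for Irf5, -0.17 to 0.084 for Cx3cl1, -0.30 to 0.0070 for Stab1, -0.12 to 0.067 for Kdr, -0.34 to 0.27 for Col3a1 and -0.21 to 0.15 for Ccdc153. Cx3cr1 stayed between 0.18 and 0.30 and Trem2 between 0.24 and 0.57. C1qa kept its direction in all 23 (-0.33 to -0.60 on leaving out 1 pup). A mean of at least 100 left out Trem2, Tyrobp and Tmem119. Depth was lowest for Tmem119 (8 to 66 reads a pup) and Trem2 (11 to 54).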
